A study of Mus musculus with 2 samples.

Results

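The proteasome genes of mouse liver were followed on 2 arrays, 1 of fasted mice and 1 of mice upon feeding. The set was made of every gene whose symbol begins with Psm, then a letter from a to g, then a number, where the symbol came from matching the transcript of an array probe to the RefSeq table of the assembly GRCm38.p6. The rule found 50 genes with 60 probes among 20652 genes named on the array. Of these, 48 genes with 58 probes encode subunits, regulators or assembly factors of the proteasome, and 47 of them were measured, meaning that a probe lay well above background on at least 1 array. The exception was Psmb11, the subunit of the thymus proteasome, whose probe did not rise above background upon fasting or feeding. A further 2 genes matched by name only and were kept out of all counts: Psmc3ip, a factor of homologous recombination, had a change of 0.54 on the log2 scale, and Psme3ip1, an interaction partner of Psme3, had a change of 0.13.

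The proteasome is the barrel-shaped protease that breaks down proteins marked with ubiquitin in the cytosol and nucleus. Its core particle is a stack of rings, with alpha subunits guarding the entry and beta subunits carrying the active sites inside. A regulatory particle, built from a base with ATPases and a lid, binds ubiquitin chains, removes them and threads the substrate into the core. Activators can take the place of the regulatory particle, inducible beta subunits form the immunoproteasome that shapes peptides for antigen presentation, and dedicated chaperones put the rings together. In liver the proteasome works beside autophagy in the turnover of protein during fasting and refeeding.

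Total RNA came from the livers of male mice, of the strain C57BL/6 J and aged about 8 to 12 weeks by the methods, which give one age for all mice of the study, and the RNA of 3 mice was pooled within each group. The study's legend counts the mice of a group as its n, while here each pool is 1 sample. The fasting group had gone without food overnight, for 16 h according to one label and for 14 to 16 h according to another. The feeding group is described both as having food at will and as fed after the fast, so the time on food is not given. The study used the comparison to ask which liver genes respond to nutrients.

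Each group had 1 array, so no difference below has a replicate check between mice, and no test, p-value or standard error is given. Levels are the deposited processed signals, which are background-subtracted and not normalized between arrays, and every change is the difference of quantile normalized log2 signals, feeding minus fasting. On the fasting array 63.1% of the spots were well above background and on the feeding array 72.3%, no spot was saturated, and the median local background was 30 against 22. Of the markers of hepatocytes, which make up most of the organ's mass, 12 of 12 were measured, with a median change of -0.03 and a log2 change of their summed normalized signal of -0.12, from -0.97 for Tat to 0.23 for Asgr1. The summed normalized signal of 11 measured leukocyte markers went from 69566 to 46203, a log2 change of -0.59 with a median of -0.46. That of 12 markers of other liver cells had a change of -0.20 with a median of -0.17, from -1.04 for the endothelial Pecam1 to 2.11 for Sox9 of bile duct cells. The other bile duct markers did not share the value of Sox9. Krt19 had a change of -0.31 and Epcam one of 0.08, and Krt7 was well above background on 1 array only. The other endothelial markers Stab2, Lyve1 and Kdr had changes of -0.35, -0.31 and -0.11. In whole tissue fewer cells of a type and less RNA per cell cannot be told apart.

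Most proteasome genes kept nearly the same level on both arrays, and a pair of regulators stood apart. The median change over the 47 genes was 0.14, with 32 genes (68.1%) above 0 and 15 below, beside 47.7% above 0 among all genes and 51.8% among the genes of the brightest class by signal. Psme3, which encodes the nuclear activator PA28gamma, was 4.63-fold lower upon feeding, and Psmd9, an assembly chaperone of the base, was 2.64-fold lower. No member was 2-fold higher. Among all 16342 genes measured, 3.27% were at least 2-fold higher and 4.62% at least 2-fold lower, and their median change was 0.0, so the share of members past 2-fold lower, 2 of 47, was close to that of all genes. At 1.5-fold, 1 member was higher (Psmg3), beside 10.5% of all genes, and the same pair of 2 members was lower, beside 10.6% of all genes.

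**Figure D1:**
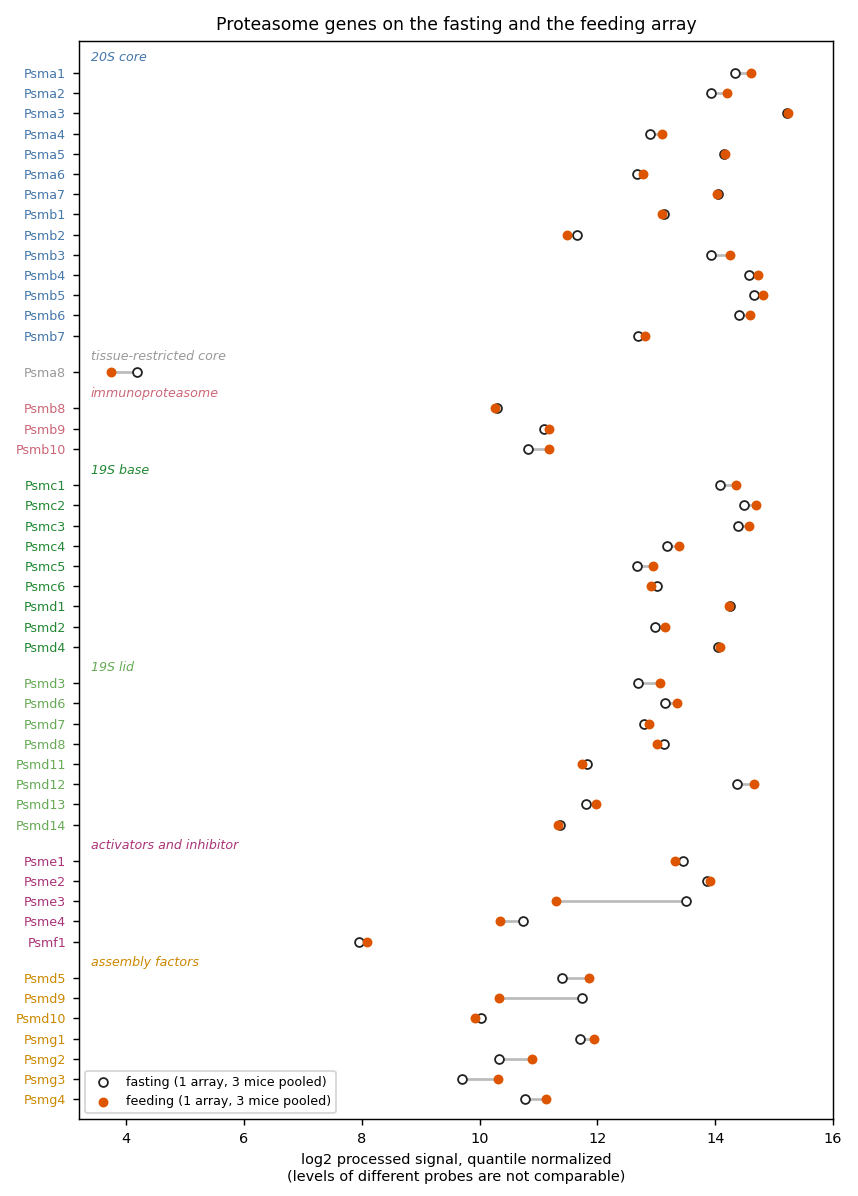
The log2 processed signal after quantile normalization (x axis) of each measured proteasome gene on the fasting array (open circles) and the feeding array (filled circles), with 1 pool of 3 mice per array and a grey line joining both values. Most pairs of circles nearly touch, while Psme3 goes from 13.51 to 11.30 and Psmd9 from 11.73 to 10.33.

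Of the 47 genes, 42 fell in the brightest of 3 equal classes of genes by signal, 4 in the middle class and 1 in the dimmest. Among the 42 bright members, 39 (92.9%) lay within 0.5 of 0 on the log2 scale, beside 4211 of 5447 (77.3%) of all genes of that class. The interquartile range of the changes was 0.29 over all 47 proteasome genes, whatever their class. It was 0.52 over all genes measured and 0.50 over all genes of the brightest class. Psme3 and Psmd9 were the only proteasome genes of the brightest class past 2-fold or 1.5-fold in either direction. Of all genes of that class, 5.8% and 17.3% were past these thresholds. The histogram of changes shows the same narrowness: 15 of the 42 bright members had a change between 0 and 0.2 and 13 between 0.2 and 0.4, and the pair of low members lay far from the main body. Without Psme3 and Psmd9 the range over the other 45 genes ran from -0.44 to 0.61 and their median was 0.15.

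**Figure D2:**
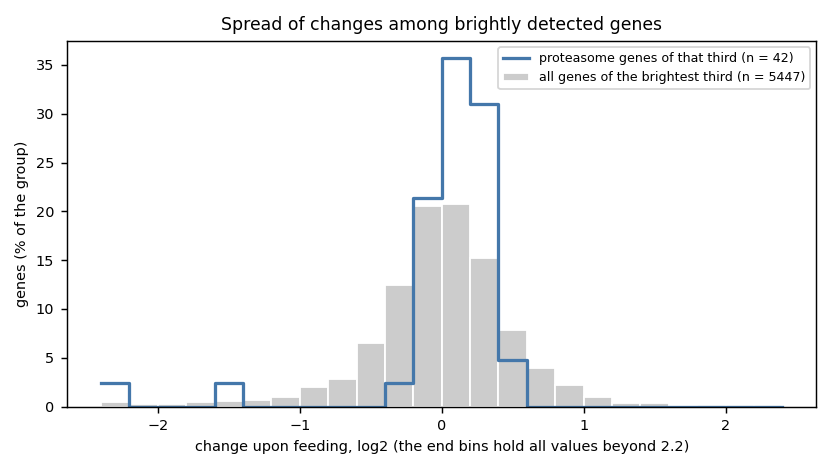
Percent of genes (y axis) by change upon feeding on the log2 scale (x axis) for the 42 proteasome genes of the brightest class (line) and all 5447 genes of that class (grey bars). The line peaks at 35.7% between 0 and 0.2 and has isolated steps at Psmd9 and Psme3.

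Measurement error on the array gives a scale for such small changes, though it holds no difference between mice. Probes printed as 8 or more spots gave the spread of repeat spots within each array. Added over both arrays, it gave a standard deviation for a difference of 0.09 in the brightest class, 0.14 in the middle class and 0.42 in the dimmest. It leaves out differences in labelling and hybridisation between the arrays. By that scale 20 members lay more than 2 standard deviations from 0, with 17 higher, beside 21.8% of all genes, and 3 lower, beside 20.5%. These shares are not for genes of like signal. They cover all 3 classes, while 42 of the 47 members fell in the brightest class, where the scale is smallest. The shares within that class were not taken, so no excess of members can be read from them. The error model of the extraction software was wider, with a median standard deviation of 0.20 over the members, and left 5 of the 47 genes beyond 2 of its standard deviations, beside 30.1% of all genes: Psmd5, Psmd9, Psme3, Psmg2 and Psmg3. Psme1 was the member printed most often. Its 10 spots read 11118 ± 169 (SD) upon fasting, from 10846 to 11411, and 10256 ± 287 upon feeding, from 9785 to 10650, before any scaling between the arrays. The change of Psme1 was -0.12 after quantile normalization, -0.007 with scaling to the 75th percentile and 0.12 with median scaling, so its sign depended on the scaling.

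Both genes past 2-fold act on the proteasome from outside its core. Psme3 forms a ring that opens the core without ATP and without ubiquitin, mainly in the nucleus. Its signal was 11722 upon fasting and 2481 upon feeding, a change of -2.21 from a single probe, and 0.673% of all genes measured were lower still. It stayed between -2.01 and -2.21 under every scaling and background correction that was tried. The change of Psme3 stood alone in its family. Psme1 and Psme2, which together form the interferon-inducible activator PA28 of the cytosol, had changes of -0.12 and 0.04.

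Psmd9, which holds ATPase subunits until they join the base, was measured by 2 probes for the same transcript. The brighter probe read 3443 upon fasting and 1259 upon feeding, a change of -1.40. The dimmer probe read 1521 and 1073, a change of -0.43. Both probes were lower upon feeding, but they differed by 0.97, and the mean of both was -0.92, which is not past 2-fold. The call of Psmd9 at 2-fold therefore rested on 1 of its 2 probes.

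The other activators had smaller values. Psme4, the large single-chain activator PA200 of the nucleus, read 1725 and 1278 with its brighter probe, a change of -0.38, while a much dimmer probe read 34.04 and 42.06, a change of 0.53. The direction for Psme4 thus depended on the probe. Psmf1, the inhibitor PI31, read 264.4 and 258.9, a change of 0.14 after normalization. With 3 of 5 genes below 0 the class had a median of -0.12, the lowest of the classes with more than 1 gene measured, but this median was 0.06 for the mean of each gene's probes and 0.12 with scaling to the median of each array, so the direction of the class was not stable.

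The assembly factors held both the highest and one of the lowest changes. Psmg1 to Psmg4 encode the chaperones PAC1 to PAC4, which build the alpha ring and keep it from closing on itself. All 4 were above 0, with a median of 0.45. Psmg3 read 865.1 upon fasting and 1244 upon feeding, a change of 0.61 or 1.52-fold. Psmg2, the partner of Psmg1, read 1320 and 1860, a change of 0.55. Psmg4, the partner of Psmg3, read 1781 and 2210, a change of 0.35, and Psmg1 read 3388 and 3911, a change of 0.24. The chaperones of the base pointed in different directions. Psmd5, which delays the docking of the base on the core, read 2717 and 3677, a change of 0.46. Psmd10, the oncoprotein gankyrin, read 1075 and 935.7 with one probe, a change of -0.11, and 943.8 and 1081 with the other, a change of 0.28. Only Psmg3 was past 1.5-fold among the chaperones on the higher side, and with the normexp background correction its change was 0.56, under that threshold.

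**Figure D3:**
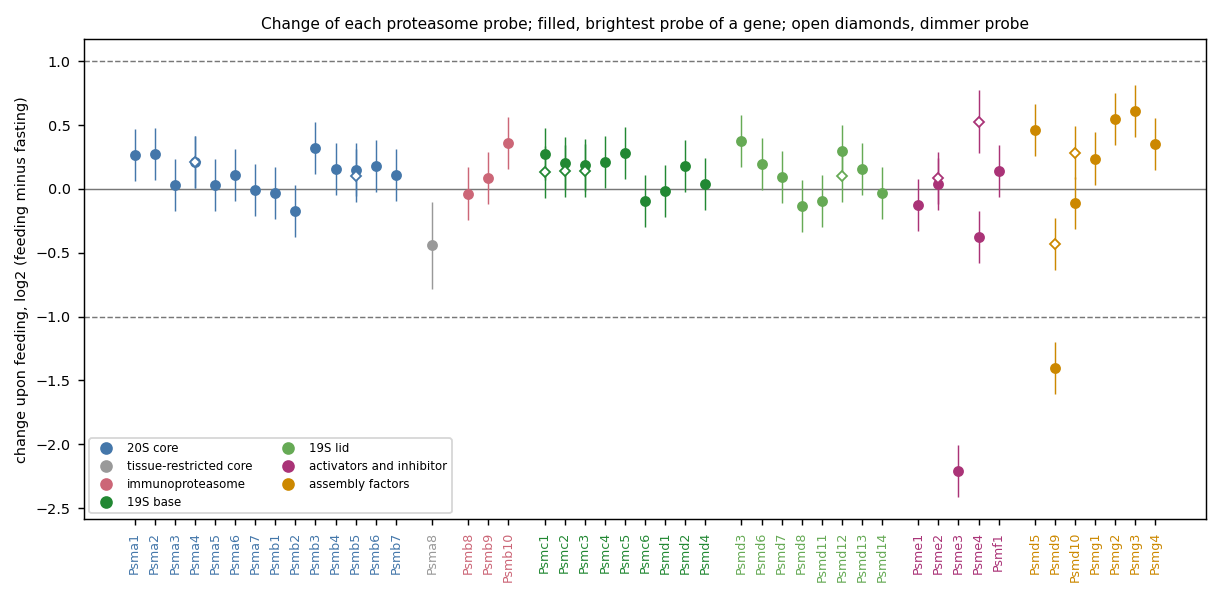
Change upon feeding on the log2 scale (y axis) of each proteasome probe, with the brightest probe of a gene as a filled circle and a dimmer one as an open diamond, coloured by class. Bars are 1 standard deviation of the extraction software's error model, dashed lines mark 2-fold, and only the Psme3 probe and the brighter Psmd9 probe lie beyond them.

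Changes in the core particle were small. Its 14 constitutive subunits had a median change of 0.13 and 11 of them were above 0. The 7 alpha subunits of the outer rings ran from -0.01 for Psma7 to 0.27 for Psma2, which read 15683 upon fasting and 18697 upon feeding. Of the beta subunits without an active site, Psmb3 had the highest value of the core, with readings of 15758 and 19395 and a change of 0.32. Psmb2 had the lowest, with readings of 3263 and 2817 and a change of -0.18. The 3 subunits that cut the substrate lay within a narrow band. Psmb5, which cuts after hydrophobic residues, read 26157 and 28170, a change of 0.15. Psmb6, which cuts after acidic residues, read 22040 and 24431, a change of 0.18. Psmb7, which cuts after basic residues, read 6705 and 7068, a change of 0.11. No core subunit came near the 1.5-fold threshold.

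The inducible subunits take the places of these 3 catalytic subunits in the immunoproteasome. Psmb8, which replaces Psmb5, read 1290 upon fasting and 1198 upon feeding, a change of -0.04. Psmb9, which replaces Psmb6, read 2214 and 2273, a change of 0.09. Psmb10, which replaces Psmb7, read 1834 and 2278, a change of 0.36. The change of the inducible subunit minus that of its constitutive counterpart was -0.19, -0.09 and 0.25 for the respective pairs, so the inducible genes did not move one way against the constitutive ones. The leukocyte markers were lower on the feeding array, with 10 of 11 below 0 and a median of -0.46, and Adgre1, a macrophage marker, read 13121 and 6943. Cd79a, a marker of B cells, was well above background on 1 array only. The part of these cells in the values of Psmb8, Psmb9 and Psmb10 was not tested.

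The regulatory particle followed the core. Its base had a median change of 0.19 with 7 of 9 genes above 0. The 6 ATPases, which unfold the substrate, had a median of 0.20. The highest was Psmc5, with readings of 6565 and 7796 and a change of 0.28, and the lowest Psmc6, with readings of 8328 and 7571 and a change of -0.10. Among the base subunits without ATPase activity, the scaffold Psmd1 had a change of -0.02, the scaffold Psmd2 0.18 and the ubiquitin receptor Psmd4 0.04. The lid had a median of 0.12, with 5 of 8 genes above 0 and 3 below. Its highest value was that of Psmd3, a structural subunit, which read 6639 and 8453, a change of 0.38. Its lowest was that of Psmd8, which read 9101 and 8097, a change of -0.13. Psmd14, the protease that removes the ubiquitin chain, read 2683 and 2545, a change of -0.03.

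Psma8, the alpha subunit of the testis proteasome, was the only member in the dimmest class. It read 19.3 upon fasting and 12.81 upon feeding, a change of -0.44 that is close to the spot spread of 0.42 at such signals, and with the normexp correction the change was 0.01. For 10 genes with 2 probes, both probes had the same sign in 8, and the median difference between the probes of a gene was 0.10. The exceptions in sign were Psme4 and Psmd10.

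The small shift of the whole family above 0 depended on how the arrays were scaled. With scaling to the median of each array, 43 of 47 members were above 0 and the median was 0.34, while the median of all genes was then 0.09. With the normexp correction the median was 0.10 and 33 members were above 0. Between these settings the median of the family minus that of all genes ran from 0.09 to 0.25. Set beside genes of like signal, the 42 bright members had a median of 0.15 with 30 above 0, while all 5447 genes of the brightest class had a median of 0.02 with 51.8% above 0. With median scaling the whole bright class moved to a median of 0.21 with 72.2% above 0, and the bright members to 0.35. The bright members minus their class thus ran from 0.09 with the normexp correction to 0.14 with either scaling, a description of these 2 pools without a test.

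**Figure D4:**
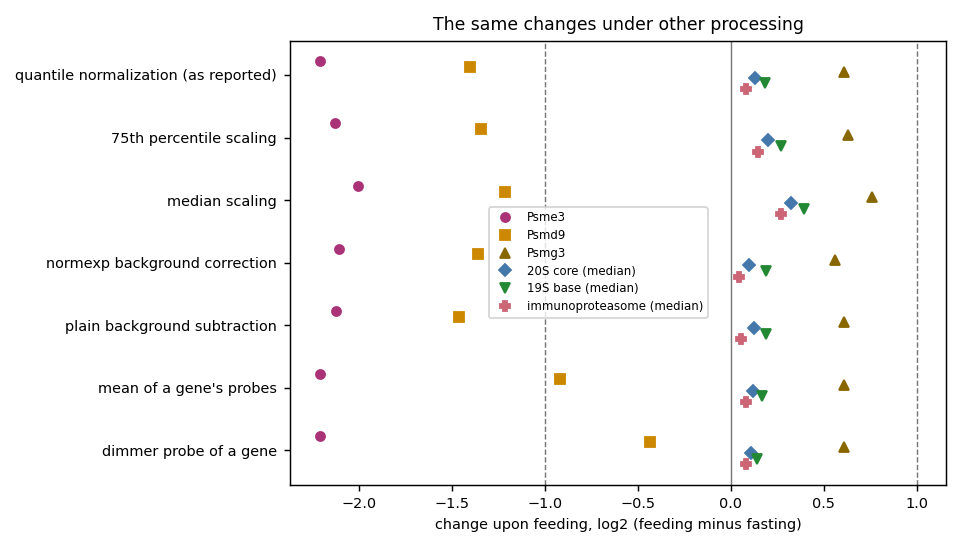
Change upon feeding on the log2 scale (x axis) under each processing (y axis) for Psme3, Psmd9 and Psmg3 and for the medians of the core, base and immunoproteasome classes, with dashed lines at 2-fold. Psme3 stays near -2 throughout, Psmd9 goes from -1.46 to -0.43, and the class medians remain above 0 and under 0.40.

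The neighbourhood of the pathway was read from lists of genes that carry no Psm name. Of 22 partners of the proteasome 21 were measured, with a median change of 0.12. None was past 2-fold, beside 3.27% of all genes higher and 4.62% lower. Pomp, the chaperone that matures the core, read 16614 and 19376, a change of 0.24. The subunits Adrm1 and Sem1 had changes of 0.02 and 0.13. Past 1.5-fold higher were 2 of the 21, beside 10.5% of all genes, and none was past 1.5-fold lower, beside 10.6%. The 2 were Ubqln4, a shuttle receptor for ubiquitinated proteins, with readings of 1009 and 1498 and a change of 0.65, and Ube3c, a ubiquitin ligase that sits on the proteasome, with readings of 1010 and 1444 and a change of 0.60. With the normexp correction these were 0.49 and 0.50, both under 1.5-fold.

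Of 9 genes for ubiquitin and its E1 enzymes, none was past 2-fold, beside 3.27% of all genes higher and 4.62% lower, and the median was 0.06. The polyubiquitin gene Ubb read 73055 and 54483, a change of -0.33. The 15 genes of antigen presentation and interferon signaling had a median of -0.19 with 10 below 0, beside a median of -0.46 for the leukocyte markers, whose part in it was not tested. Only Irf7, an interferon regulatory factor, was past 2-fold in that list, 1 of 15 genes on the lower side beside 4.62% of all genes. It read 229.4 and 95.24, a change of -1.06 that was -0.58 with the normexp correction.

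The 9 regulators of proteasome genes had a median change of -0.35. That median was the value of 1 gene, which was also counted among the partners. The quartiles of the regulators were -0.84 and 0.26, beside -0.03 and 0.25 for the proteasome genes. Of the 9 regulators, 2 were past 2-fold lower (4.62% of all genes), 4 past 1.5-fold lower (10.6%) and 1 past 1.5-fold higher (10.5%). Nfe2l1, the transcription factor that raises proteasome genes when the protease is blocked, read 116.6 upon fasting and 49.8 upon feeding, a change of -1.02. Its single probe lay in the dimmest class, where the spot spread gave a standard deviation of 0.42 for a difference. The change of Nfe2l1 was -0.99 with median scaling, -0.95 with plain background subtraction and -0.38 with the normexp correction, so its call held only in some settings. The normexp correction added an offset of 50 to each signal, which pulls the changes of dim probes toward 0. Maff, a small Maf protein that pairs with such factors, read 556.5 and 215.3, a change of -1.21, and Mafk read 816.5 and 417.3, a change of -0.84. Mafg, also a small Maf protein, read 2899 and 3403, a change of 0.26, and its 3 probes were all above 0. Bach1, a repressor at the same sites, read 2150 and 1326, a change of -0.64. Nfe2l2, the oxidative stress factor NRF2, read 11090 and 18596, a change of 0.74. Nfe2l2 and Mafg were among 4 of the 9 regulators with a change above 0.

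These factors bind the antioxidant response element, whose core TGACNNNGC was searched on both strands in the 300 bases around the start of each gene, together with CCAAT, the box bound by NF-Y. The letters of the motifs do not overlap. Of 43 promoters of 40 proteasome genes in the RefSeq table, 6 (14%) held the first motif and 14 (32.6%) the second, beside 12.4% and 37.4% of 32851 promoters of all genes. The 6 genes with TGACNNNGC were Psmb5, Psmb6, Psmc6, Psmd9, Psmd12 and Psme4. Their median change was 0.03, beside 0.16 over 33 measured genes without it. The 250 bases before the start are shown for both members past 2-fold and for both catalytic subunits with the motif, since Psmd9, Psmb5 and Psmb6 share these letters and differ in their change. They were taken from RefSeq on GRCm38.p6 and run 5′ to 3′ on the strand of the gene, with capitals marking TGACNNNGC or CCAAT on either strand. Psme3 lies at chr11:101315963-101316212 on the plus strand, Psmd9 at chr5:123227940-123228189 on the plus strand, Psmb5 at chr14:54617996-54618245 on the minus strand and Psmb6 at chr11:70525107-70525356 on the plus strand.
Psme3: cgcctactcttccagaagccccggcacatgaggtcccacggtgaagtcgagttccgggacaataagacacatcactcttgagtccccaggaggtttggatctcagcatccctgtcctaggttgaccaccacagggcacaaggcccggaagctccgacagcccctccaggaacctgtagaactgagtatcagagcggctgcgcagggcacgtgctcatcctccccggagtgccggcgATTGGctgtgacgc
Psmd9: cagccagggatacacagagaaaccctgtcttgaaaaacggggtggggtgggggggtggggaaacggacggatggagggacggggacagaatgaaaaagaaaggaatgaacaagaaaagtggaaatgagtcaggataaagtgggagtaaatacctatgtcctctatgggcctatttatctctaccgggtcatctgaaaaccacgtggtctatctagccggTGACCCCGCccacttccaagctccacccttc
Psmb5: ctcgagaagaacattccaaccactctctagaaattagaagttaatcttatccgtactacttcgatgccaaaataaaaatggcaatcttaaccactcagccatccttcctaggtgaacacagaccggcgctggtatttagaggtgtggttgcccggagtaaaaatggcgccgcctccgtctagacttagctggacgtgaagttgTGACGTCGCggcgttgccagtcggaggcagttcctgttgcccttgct
Psmb6: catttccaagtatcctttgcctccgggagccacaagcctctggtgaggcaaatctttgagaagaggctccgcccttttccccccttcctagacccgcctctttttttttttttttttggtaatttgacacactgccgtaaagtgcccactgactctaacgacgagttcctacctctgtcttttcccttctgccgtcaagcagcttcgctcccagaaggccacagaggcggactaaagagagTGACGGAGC
The Psme3 window held CCAAT, on the minus strand at 14 bases before the start, and no TGACNNNGC. In the Psmd9 window TGACNNNGC began 31 bases before the start, in that of Psmb5 47 bases and in that of Psmb6 9 bases before it. Psmd9 had a change of -1.40 and the other pair had changes of 0.15 and 0.18, so the letters did not go with one direction.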

How the data were processed

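Total RNA of 3 mice per group had been labelled with Cy3 by the authors, hybridised to 1 Agilent Whole Mouse Genome array per group and read with Agilent Feature Extraction 11.0.1.1. The deposited values are intensities per spot, and the processed signal had been background-subtracted, with no normalization between arrays. The authors' own quantile normalization and 2-fold filter followed later. The series' value table equals the mean local background for 44397 of 44397 spots (relative tolerance 1e-06), so it was not used as an expression value. The depth of an array is not a count, and the number of arrays limits the precision.

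Here, processed signals were put on the log2 scale, control and outlier spots were dropped, repeat spots of 1 probe were averaged, and the arrays were quantile normalized (numpy 2.4.6, pandas 2.3.3). The medians of both arrays were then equal, so no further median scaling was applied. Of 39402 probes, 27218 (69.1%) matched a RefSeq transcript. A gene was represented by its brightest probe and called at 2-fold. A bound was used where a probe was dim on 1 array, which touched 0 proteasome genes. The normexp alternative used an offset of 50 (limma 3.58.1, R 4.3.3). The other alternatives were scaling to the 75th percentile or the median of each array, the mean of a gene's probes, other filters on dim probes, no bound, probes in place of genes and thresholds of 1.5-fold and 3-fold. The procedure was tested on simulated data.

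The members and lists were chosen with earlier results of these data known. Values on both arrays were given for members past 1.5-fold, for the highest and the lowest of each class, for genes whose probes disagreed in sign and for the inducible subunits with their counterparts. Of each other list at most 4 genes were named, beside Nfe2l1, Nfe2l2, Pomp, Adrm1 and Sem1. A gene that this rule selects is not reported here. Mafg, other members and the cell type markers were named after their values were seen. Psme3ip1 was added to the genes matched by name only and the marker Tf was written as Trf after the arrays were read. The array design names an older assembly than the RefSeq table, so no probe coordinates are given. A planned comparison of protein sequences was not run.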

Additional observations from a re-analysis of the deposited data

How the results depend on the processing

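No paired analysis was possible because each group had 1 array. The count of 0 members past 2-fold higher held in every setting of scaling, background, filter and probe, and was 1 with a threshold of 1.5-fold. The count of 2 members past 2-fold lower was 1 with the mean of a gene's probes, with the dimmer probe and with a threshold of 3-fold, and with the dimmer probe the count past 1.5-fold lower was also 1, since Psmd9 no longer passed. The count past 1.5-fold higher, 1 as reported, was 2 with scaling to the 75th percentile, 3 with median scaling, 0 with the normexp correction and 2 with plain background subtraction. With median scaling the medians were 0.34 over all members, 0.33 for the core, 0.27 for the immunoproteasome, 0.40 for the base, 0.33 for the lid, 0.12 for the activators, 0.55 for the assembly factors, 0.30 for the partners, -0.15 for the regulators, 0.22 for ubiquitin and E1 and -0.008 for antigen presentation and interferon, beside 0.09 for all genes. The median of the activators was -0.007 with scaling to the 75th percentile, 0.061 with the mean of probes and 0.086 with the dimmer probe. That of the regulators was -0.21 and -0.071 in the last pair of settings, and that of ubiquitin and E1 was -0.14 with the dimmer probe. The median of the regulators was the value of 1 gene, whose 2 probes had changes of -0.35 and -0.07, so it followed the choice of probe. The cause of the other shifts was not tested. The median of ubiquitin and E1 was also -0.019 with the mean of probes and -0.006 with plain subtraction, and the medians not named here kept their sign. Plain subtraction, the dimmer probe and the family without Psme3 and Psmd9 were chosen after seeing the data. Single spots per probe and 1 pool per group limit what changes under 1.5-fold can show.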

Other observations

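Genes within 6 places of both low members in the order of the RefSeq table were read after the values of Psme3 and Psmd9 were known. Beside Psme3, Becn1, an autophagy gene, had a log2 change of -0.40, and Aoc2 one of -0.21. The next gene but one after Aoc2 is G6pc, the glucose-6-phosphatase of gluconeogenesis, whose normalized signal went from 50168.3 to 14727.3, a change of -1.77. Coa3, 3 places from Psme3 on the other side, had a change of 0.53. Directly beside Psmd9, Hpd, an enzyme of tyrosine breakdown, had a change of -0.13. Farther off, Bcl7a at 4 places had a change of -0.91, and Mlxip, a glucose-responsive transcription factor at 6 places, one of -1.04. Tmem120b, at 4 places on the side of Hpd, had a change of 0.56. The neighbours of each gene thus had changes in both directions.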
